A study of Mus musculus with 24 samples.

Results

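Tumor endothelial cells, the cells that line blood and lymphatic vessels, were taken from 16 single-cell RNA-Seq libraries of Panc02 tumors. A cell barcode with at least 1000 unique molecular identifiers (UMIs, each counted as 1 captured RNA molecule) and under 10% of UMIs from mitochondrial (mt-) genes was a member if it held at least 1 UMI each of Pecam1 (CD31) and Cdh5 (VE-cadherin). It also had to hold no UMI of the leukocyte gene Ptprc (CD45), at most 1 UMI of the epithelial keratins Krt8 and Krt18 together, and at most 1 UMI of the macrophage gene C1qb. This gave 489 endothelial cells among 120912 barcodes that passed the UMI and mitochondrial limits (0.404%), of 144994 barcodes deposited. The cells were thus chosen by their measured counts of Pecam1, Cdh5, Ptprc, Krt8, Krt18, and C1qb, which are not results.

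Panc02 is a mouse pancreatic cancer cell line. Male wild-type C57BL/6 mice aged 6 to 7 weeks were implanted s.c. with 3000000 Panc02 cells and received 1 of the 8 combinations of the neoantigen peptide vaccine PancVAX, an anti–PD-1 antibody, and an anti–CTLA-4 antibody: PancVAX + Anti-PD-1 + Anti-CTLA-4 (all 3 agents), PancVAX + Anti-PD-1, PancVAX + Anti-CTLA-4, PancVAX, Anti-PD-1 + Anti-CTLA-4, Anti-PD-1, Anti-CTLA-4, and Isotype Control. By the sample labels PancVAX was given on days 12 and 19 at 50 μg of peptides, an amount that the study's methods give for each peptide. By those methods its dose also held the emulsion AddaVax and a STING agonist where the other mice received PBS, so that peptides and adjuvants cannot be told apart here. The antibodies were given at 100 μg, anti–CTLA-4 on days 15 and 22 and anti–PD-1 starting on day 12, isotype antibodies took their place in the other mice, and tumors were harvested on day 38. These are values of the sample labels or of the study's methods, and other text of the study differs from them in the number of cells implanted, the second day of anti–CTLA-4, and the day of harvest. The study asked what CD4 T cell responses to neoantigens add to such a vaccine, and it used these libraries to read the T cells of treated tumors. Tumors of 1 treatment were pooled, and each treatment had 1 whole-tumor library, made from the dissociated cells as they were, and 1 Percoll library. By the study's methods the latter followed a density gradient meant to enrich immune cells. Passing barcodes without a Ptprc UMI were 3498 of 5868 in the whole-tumor and 3878 of 6279 in the Percoll library of PancVAX. For Isotype Control they were 5940 of 8767 and 3279 of 4881, and the other pools went in either direction, so no general enrichment of leukocytes was seen. The preparations were also the 2 sequencing batches. The pair of libraries of a treatment is called a pool, so that each of the 3 agents was given to 4 pools and withheld from 4. Spread between pools is spread between groups of mice that also differ in the other agents, not between single mice.

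Tumor vessels are the route by which T cells enter a tumor. Endothelial cells that meet inflammatory cytokines activate NF-κB and interferon signaling and then display adhesion molecules such as ICAM-1 and VCAM-1, chemokines, and MHC molecules, while VEGF signaling drives sprouting and dampens these molecules. NF-κB also turns on its own inhibitors, among them IκBα (Nfkbia) and A20 (Tnfaip3), and the transcripts of these inhibitors rise with the pathway. Lymphatic endothelial cells, which drain tissue fluid and carry antigen-presenting cells to lymph nodes, are set apart by the transcription factor PROX1.

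The cells held a median of 11934 UMIs (quartiles 6191 and 19104, range 1000–82225) and 3454 genes, against a median of 10606 UMIs in all passing barcodes. The upper limits that the study used for its own cells, 10000 UMIs and 3000 genes, would have kept 184 of the 489 cells (37.6%), since 285 were above 10000 UMIs and 298 above 3000 genes. No doublet caller was run. Of the 489 cells, 263 came from whole-tumor and 226 from Percoll libraries, 14 to 50 per library and 43 to 93 per pool, with 593023 to 1399424 summed UMIs per pool. The label held against markers that the rule did not use. Kdr (VEGF receptor 2) had a UMI in 89.8% and Egfl7, a secreted endothelial protein, in 97.1% of the cells, against 0.0648% and 7.12% of keratin-positive barcodes, and 481 of 489 had at least 1 of them. Keratin-positive barcodes were chosen to hold no UMI of Pecam1, Cdh5, or Ptprc, so this contrast is partly fixed by their rule. Leukocyte and red cell genes were low, the former partly because the rule allowed no Ptprc UMI and at most 1 of C1qb. Pericyte and smooth muscle genes, at least 2 of 8, were held by 95 cells (19.4%). Of these, 74 held exactly 2 and 16 at least 4. Cd3e had a UMI in 7 cells, Lyz2 more than 1 UMI in 10, and hemoglobin genes a UMI in 4, while 1 of the 226 Percoll cells shared its barcode with a T cell receptor contig. The barcode sequence of 74 cells (15.1%) also occurred in another library, as did 17.3% of all deposited barcodes, and no sequence was shared by 2 endothelial cells.

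At the edges of the rule, 24 cells held 1000 to under 2000 UMIs (Kdr in 58.3%), and 6 barcodes that met the other limits held 500 to under 1000 (Kdr in 0 of 6). At the mitochondrial limit Kdr was found in 85.7% of 7 cells at 8–10% and in 77.8% of 9 barcodes at 10–12%. The 13 cells with 1 UMI each of Pecam1 and Cdh5 had Kdr in 38.5%. Outside, 34 barcodes with Cdh5 alone had it in 20.6% and 326 with Pecam1 alone in 2.76%. The leukocyte limit left out 24 barcodes with 1 Ptprc UMI, which had Kdr in 87.5%, and 29 with more, which had it in 31.0%. The keratin limit kept 67 cells with 1 UMI (Kdr in 95.5%) and left out 14 with 2 (64.3%) and 91 with 3 or more (64.8%). The C1qb limit kept 71 cells with 1 UMI (91.5%) and left out 15 with 2 (93.3%).

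Endothelial cells made up 0.250% to 0.713% of the passing barcodes of a library. In the 8 whole-tumor libraries the shares with PancVAX were 0.443% (PancVAX, 26 of 5868 barcodes), 0.713% (PancVAX + Anti-PD-1, 49 of 6874), 0.515% (PancVAX + Anti-CTLA-4, 50 of 9705), and 0.330% (all 3 agents, 24 of 7265). Without PancVAX they were 0.445% (Isotype Control, 39 of 8767), 0.539% (Anti-PD-1, 30 of 5564), 0.262% (Anti-CTLA-4, 21 of 8009), and 0.356% (Anti-PD-1 + Anti-CTLA-4, 24 of 6746). The groups overlapped. Means were 0.5004% ± 0.161 with and 0.401% ± 0.119 without PancVAX (SD, n = 4 libraries each), and an exact two-sided permutation test over all 70 splits did not separate them (p = 0.429, 0.571 after Benjamini-Hochberg adjustment over the 3 agents). Anti–PD-1 gave 0.485% ± 0.178 against 0.416% ± 0.108 (exact p = 0.571, adjusted p = 0.571), and anti–CTLA-4 0.366% ± 0.107 against 0.535% ± 0.127 (exact p = 0.0857, adjusted p = 0.257). With single libraries left out, the anti–CTLA-4 difference of -0.169 percentage points ran from -0.219 without PancVAX + Anti-CTLA-4 (exact p = 0.0286, not adjusted) to -0.110 without PancVAX + Anti-PD-1 (exact p = 0.171). The PancVAX difference of 0.0999 fell to 0.0290 and the anti–PD-1 difference of 0.0682 turned to -0.00790 without PancVAX + Anti-PD-1.

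In the Percoll libraries every share of all passing barcodes was higher with PancVAX than without it, and over barcodes without a Ptprc UMI the groups overlapped. The shares with PancVAX were 0.382%, 0.414%, 0.507%, and 0.444% in the order above, and those without were 0.287%, 0.377%, 0.250%, and 0.273%. The means were 0.437% ± 0.0531 and 0.297% ± 0.0559 (SD, n = 4 each), and the exact p of 0.0286 is the smallest that 4 against 4 libraries can give (adjusted p = 0.0857 over 3 agents). As shares of the barcodes without Ptprc they were 0.619%, 0.637%, 0.803%, and 0.732% with PancVAX and 0.427%, 0.630%, 0.360%, and 0.415% without (exact p = 0.0571, adjusted p = 0.171), the PancVAX library lying below the Anti-PD-1 library. A density gradient removes part of the cells, so a Percoll share is not the share in the tumor. The exact binomial intervals at 95% of single libraries were wide, from 0.290–0.649% for the PancVAX whole-tumor library to 0.157–0.481% for the Isotype Control Percoll library, and cover counting error only.

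**Figure D1:**
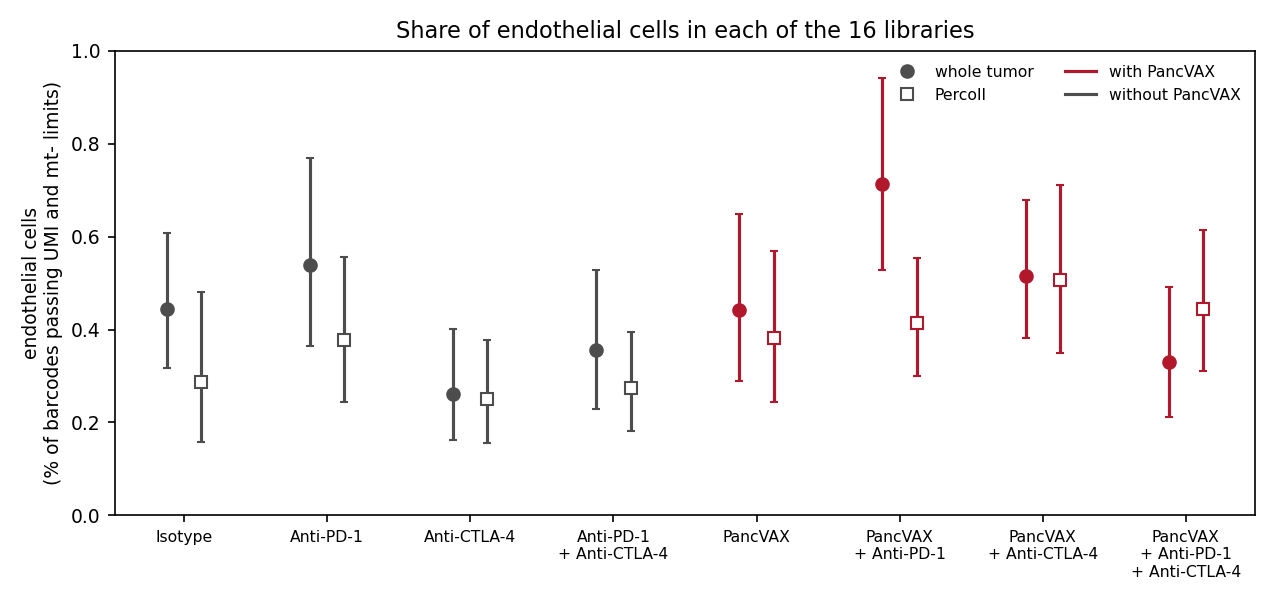
Endothelial cells as a percentage of barcodes that passed the UMI and mitochondrial limits, in each of the 16 libraries (circles whole tumor, squares Percoll, red with PancVAX, gray without). Bars are exact 95% binomial intervals; the 4 Percoll libraries with PancVAX (0.382–0.507%) sit above the 4 without (0.250–0.377%), which overlap when only barcodes without Ptprc are counted (0.619% with PancVAX, 0.630% with Anti-PD-1), and the whole-tumor libraries overlap.

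Lists of 6 to 9 genes for arterial, venous, tip, lymphatic, and cycling endothelial cells were read in each cell after thinning to 1000 UMIs, which removes differences of depth. The mean share of cells with at least 2 arterial genes was 15.0% ± 6.15 with PancVAX and 11.3% ± 5.35 without (SD, n = 4 pools each, exact p = 0.314). Venous genes gave 24.0% ± 4.63 and 24.8% ± 4.15 (exact p = 0.8286), tip genes 17.5% ± 3.63 and 14.7% ± 5.73 (exact p = 0.371), lymphatic genes 4.30% ± 1.55 and 2.36% ± 4.72 (exact p = 0.400), and cycling genes 8.62% ± 4.19 and 8.98% ± 2.42 (exact p = 0.914). The permutation test separated none of the 5, with adjusted p of 0.667 to 0.914. With single pools left out, the differences ran from 1.35 to 6.33 percentage points (arterial) and from -2.84 to 1.23 (venous). They ran from 1.36 to 5.69 (tip), 1.15 to 4.30 (lymphatic), and -1.93 to 1.08 (cycling). Before thinning, 73.0%, 85.9%, 71.4%, 8.79%, and 50.7% of the 489 cells had at least 2 genes of the 5 lists in the same order. In keratin-positive barcodes, which were chosen to hold no Pecam1 or Cdh5 UMI, the same lists gave 33.6%, 92.4%, 6.47%, 0.00512%, and 56.8% at a median of 18862 UMIs. These shares are not thinned, and endothelial cells were shallower, with a median of 11934 UMIs. As read so, the venous and cycling lists did not set endothelial cells apart from keratin-positive barcodes. The arterial, tip, and lymphatic lists were met by a larger share of endothelial cells.

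The lymphatic list split the cells without a middle. Of 6 lymphatic genes, 211 cells had none, 235 had 1, 22 had 2, none had 3, 1 had 4, 7 had 5, and 13 had all 6. The 21 cells with at least 4 held Prox1, Lyve1 (the hyaluronan receptor of lymphatic vessels), and Reln in 90.5% each, Pdpn (podoplanin) in 85.7%, and Mmrn1 and Flt4 (VEGF receptor 3) in 100%. In the other 468 cells these genes were found in 1.92%, 4.70%, 0%, 0%, 0.855%, and 52.1%, so Flt4 was shared with blood vessel cells. The 21 cells were chosen by these 6 genes, so this contrast is partly fixed by that choice. Genes outside the list differed as well. Flt1 (VEGF receptor 1) had a UMI in none of the 21 and in 93.4% of the others, Cd36, a fatty acid transporter of capillaries, in none and 38.7%, and Vwf, the clotting factor carrier, in 4.76% and 74.1%. Kdr was found in 90.5% and 89.7%. The 21 were shallower, with a median of 5768 UMIs against 12271.5.

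Lymphatic cells by this count numbered 2 in the PancVAX pool, 6 with PancVAX + Anti-PD-1, 4 with PancVAX + Anti-CTLA-4, and 3 with all 3 agents. Without PancVAX they numbered 5 in the Isotype Control pool, 1 with Anti-PD-1, and 0 with Anti-CTLA-4 and with both antibodies. They were thus 15 of 286 endothelial cells with PancVAX and 6 of 203 without, 5 of those 6 from the Isotype Control pool. Mean shares were 5.07% ± 1.02 and 2.81% ± 4.50 (SD, n = 4 pools each), which an exact permutation test did not separate (p = 0.371). The 4 pools with PancVAX were even, and those without ran from 0% to 9.43%. Of the 21, 16 came from whole-tumor libraries.

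**Figure D2:**
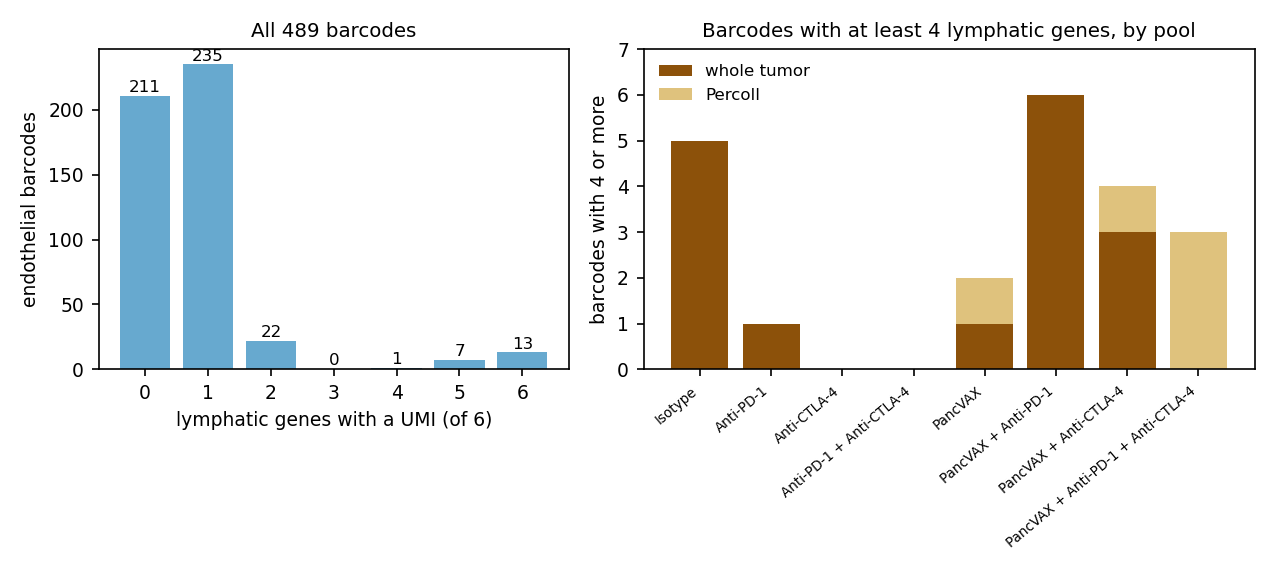
Left, the number of endothelial cells (y axis) by how many of 6 lymphatic genes had a UMI (x axis); right, the number of cells with at least 4 of them in each pool, by preparation. No cell had 3 genes, and the 21 cells with 4 or more came from 6 of the 8 pools, none from Anti-CTLA-4 or Anti-PD-1 + Anti-CTLA-4.

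Across the 8 pools, 17 genes differed with PancVAX in endothelial cells, among them Nfkbia and Tnfaip3, which encode NF-κB inhibitors, and Zfp36, Junb, and Atf3, immediate early genes, all higher. UMIs were summed over the endothelial cells of a pool and tested by edgeR's quasi-likelihood test with both antibodies as covariates. A gene was called changed at a Benjamini-Hochberg adjusted p below 0.05 and a log2 fold change past 0.5. Of 8178 genes tested, 16 rose (0.196% of genes tested) and 1 fell (0.0122%). Unadjusted p below 0.05 was reached by 366 higher (4.48%) and 298 lower genes (3.64%). For 14 of the 17 the 4 pools with PancVAX and the 4 without did not overlap, which also held for 182 genes in the higher (2.23%) and 148 in the lower direction (1.81%) of all tested. DESeq2 also called 17 genes, of which 11 were among these. In the sentences on pool values, pools with PancVAX are given in the order PancVAX, PancVAX + Anti-PD-1, PancVAX + Anti-CTLA-4, and all 3 agents, and those without in the order Isotype Control, Anti-PD-1, Anti-CTLA-4, and both antibodies. Levels are normalized counts per 1000000 UMIs (CPM) within endothelial cells and are not compared between genes.

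The called genes with 1 form of the κB motif near their start are shown first, because NF-κB binds κB motifs. RefSeq gave 250 bases before the start (build GRCm38.p6) for 14 of the 16 higher genes and no entry for Hbegf and Rnf125. The form searched, GGGA and TTCC with any 2 bases between them, on either strand, was found before Nfkbia and Cxcl1, 2 of 14, and before 1.53% of the 6554 tested genes with an entry and 1.36% of all 27025 genes. Other forms of the motif were not searched, so the lack of a match, as for Tnfaip3, does not show that a gene has no κB motif. The cyclic AMP response element TGACGTCA, which CREB and ATF proteins bind, was found before Ppp1r15a, 1 of 14, against 3.16% of tested and 1.77% of all genes. A match of letters is not a bound site. The 3 sequences are printed 5′ to 3′ on the strand of the gene and end at the base before the start. Capitals mark the motif, which in Nfkbia is on the opposite strand, begins 29 bases before the start, and in Cxcl1 is a run that holds overlapping matches on both strands from 71 bases before it.
Nfkbia, chr12:55492648-55492897 (minus strand): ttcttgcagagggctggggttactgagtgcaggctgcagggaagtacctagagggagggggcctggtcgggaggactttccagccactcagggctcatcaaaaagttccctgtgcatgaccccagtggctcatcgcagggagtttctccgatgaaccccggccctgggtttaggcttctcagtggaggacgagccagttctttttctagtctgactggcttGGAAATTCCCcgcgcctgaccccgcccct
Cxcl1, chr5:90890995-90891244 (plus strand): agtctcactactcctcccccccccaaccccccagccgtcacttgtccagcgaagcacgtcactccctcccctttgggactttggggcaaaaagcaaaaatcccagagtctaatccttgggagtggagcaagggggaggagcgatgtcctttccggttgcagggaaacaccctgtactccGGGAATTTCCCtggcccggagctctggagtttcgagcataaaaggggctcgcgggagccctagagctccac
Ppp1r15a, chr7:45526269-45526518 (minus strand): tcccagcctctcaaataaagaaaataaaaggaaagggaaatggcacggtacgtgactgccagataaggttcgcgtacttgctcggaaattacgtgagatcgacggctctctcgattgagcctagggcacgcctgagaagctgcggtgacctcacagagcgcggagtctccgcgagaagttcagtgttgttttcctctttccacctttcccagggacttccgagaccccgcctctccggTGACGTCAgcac

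Nfkbia encodes IκBα, which holds NF-κB in the cytoplasm. Its levels were 1559, 2156, 1968 and 2294 CPM with PancVAX and 1209, 1309, 1134 and 1030.2 CPM without it. Every pool with PancVAX was above every pool without, and the change was log2 fold change 0.76, SE 0.11, adjusted p = 0.0208. Tnfaip3 encodes A20, a ubiquitin-editing enzyme that stops NF-κB signaling, and its levels were 25.2, 78.9, 48.3 and 49.0 CPM with PancVAX and 13.4, 25.1, 9.84 and 19.2 CPM without it (log2 fold change 1.61, SE 0.27, adjusted p = 0.0345). The pools of Tnfaip3 met at their edge, 25.2 CPM in the PancVAX pool and 25.1 CPM in the Anti-PD-1 pool. Cxcl1, a neutrophil-attracting chemokine, gave 9.30, 69.7, 47.6 and 195 CPM with PancVAX and 18.4, 8.80, 15.5 and 42.2 CPM without it (log2 fold change 1.85, SE 0.34, adjusted p = 0.0490). Its pools overlapped, since the PancVAX pool was among the lowest, and it was also higher with anti–PD-1 (log2 fold change 1.74) and anti–CTLA-4 (1.47, unadjusted p = 5.60e-04), neither of which passed the adjustment. Without the cells that held at least 2 pericyte and smooth muscle genes, Nfkbia, Tnfaip3, and Cxcl1 were not called with PancVAX by edgeR (adjusted p = 0.175, 0.157, and 0.381).

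Ppp1r15a, also called higher, encodes GADD34, the phosphatase subunit that ends the stress-induced block of translation, and its levels were 229.8, 369.9, 301 and 278 CPM with PancVAX and 199.5, 144, 103 and 128 CPM without it (log2 fold change 1.07, SE 0.17, adjusted p = 0.0282). Pim1, a kinase gene induced by cytokines, rose from a mean of 48.8 ± 11.2 to 96.7 ± 16.1 CPM (SD, n = 4 pools each, log2 fold change 0.99, SE 0.14), and its groups did not overlap. Hbegf, a ligand of the EGF receptor, averaged 229.7 ± 35.0 against 135 ± 13.8 CPM (SD, n = 4 pools each) and Ifrd1, a transcriptional regulator, 236 ± 48.1 against 121 ± 3.21 CPM (SD, n = 4 pools each). Their log2 fold changes were 0.76 and 0.97. Cdkn1a, which encodes the cell cycle inhibitor p21, averaged 401 ± 49.4 against 239 ± 51.4 CPM (SD, n = 4 pools each) (log2 fold change 0.77, adjusted p = 0.0490), with the highest pool without PancVAX, Isotype Control, at 315 CPM just below the lowest with it at 339 CPM. Ier3, an immediate early gene of the NF-κB response, averaged 790.1 ± 232 against 434 ± 79.3 CPM (SD, n = 4 pools each) with 1 overlap, since the PancVAX pool at 495 CPM was below the Anti-CTLA-4 pool at 523 CPM. The other called genes, Fxyd6, Rnf125, and Noct, lie outside the rule for named genes.

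Sema3f, the only gene that fell, encodes a secreted semaphorin that repels neuropilin-bearing cells. Its levels were 157, 143, 119 and 126 CPM with PancVAX and 252, 221, 205 and 174 CPM without it (log2 fold change -0.64, SE 0.11, adjusted p = 0.0355), and all pools with PancVAX were below all pools without.

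Prox1 had the largest called change. Its levels were 42.5, 38.5, 15.4 and 20.8 CPM with PancVAX and 11.7, 2.51, 1.41 and 2.56 CPM without it (log2 fold change 2.74, SE 0.39, adjusted p = 0.0208), and the pools of both groups did not overlap. Single libraries carried the pool values. In whole-tumor libraries Prox1 was at 73.4, 71.0, 10.9, and 3.01 CPM with PancVAX and at 15.4, 4.89, 0, and 2.84 CPM without, and these overlapped. In Percoll libraries it was at 2.89, 3.799, 22.2, and 29.8 CPM with and at 0, 0, 2.43, and 2.24 CPM without. The whole-tumor PancVAX library held 1 lymphatic cell. The call rested on 115 UMIs with and 12 UMIs without PancVAX, and 5.73% of endothelial cells and 0.00171% of keratin-positive barcodes had any. Of the 6 lymphatic genes tested, Prox1 included, 1 was called (Prox1) and 5 had an unadjusted p below 0.05 in the higher direction, with a median log2 fold change of 1.91 against -0.00309 over all genes tested. Mmrn1 was at 49.1, 82.6, 30.0 and 41.7 CPM with PancVAX and 92.2, 5.03, 0 and 0 CPM without it (log2 fold change 1.51, SE 0.67, adjusted p = 0.583), and the Isotype Control pool was the highest of all 8. That pool had the most lymphatic cells per endothelial cell, and its Prox1 level lay below that of all pools with PancVAX. The pools with no lymphatic cell, Anti-CTLA-4 and both antibodies, held Prox1 at 1.41 and 2.56 CPM. In summed UMIs, a change in the number of lymphatic cells, a change per cell, and the depth of single cells cannot be told apart. The 21 lymphatic cells held from 2991 to 24028 UMIs each. When all cells with at least 2 lymphatic genes were left out, 11 genes were called, 9 of them among the 17. Of the 15 genes that could then be tested, all kept their direction, which is partly fixed because they were chosen on largely the same cells.

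**Figure D3:**
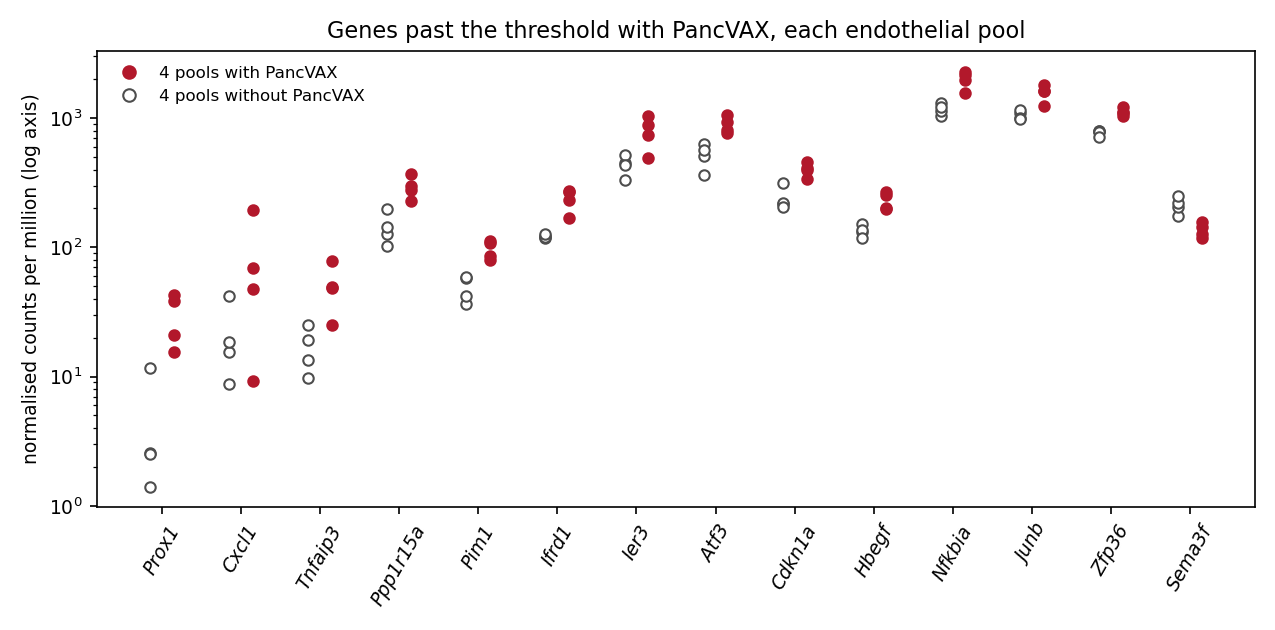
Normalized CPM (log axis) of 14 called genes in the endothelial cells of each pool, with PancVAX in red (4 pools) and without in open circles (4 pools). All groups of pools are apart except for Cxcl1 and Ier3, but single libraries of a preparation overlap for some genes, such as Zfp36 and Junb. Prox1 rests on the fewest UMIs, and its Isotype Control pool (11.7 CPM) is close to the lowest pool with PancVAX (15.4 CPM).

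The immediate early transcripts that tissue dissociation is known to induce belong beside these genes. Of 12 genes of such a list, 3 were called and 10 had an unadjusted p below 0.05, all higher, with a median log2 fold change of 0.44. Their summed level was 9791 to 11110 CPM in the 4 pools with PancVAX and 6532 to 8405 CPM in the 4 without, without overlap. Single genes overlapped within a preparation. In Percoll libraries Fos and Jun were both at 967 CPM with PancVAX + Anti-PD-1, against 1852 and 2096 CPM in Isotype Control. In whole-tumor libraries Jun did not overlap, at 1477 to 2066 CPM with PancVAX and 953 to 1389 CPM without. Zfp36, which encodes the mRNA-decay factor tristetraprolin, averaged 1117 ± 70.9 against 769.6 ± 40.7 CPM (SD, n = 4 pools each) (log2 fold change 0.54, adjusted p = 0.0282). Junb averaged 1565 ± 236 against 1059.8 ± 79.6 CPM (SD, n = 4 pools each) (0.55, adjusted p = 0.0345) and Atf3 892 ± 129 against 516 ± 112 CPM (SD, n = 4 pools each) (0.79, adjusted p = 0.0355), and both encode transcription factors of the AP-1 and ATF families. Egr1, another such factor, missed the threshold (log2 fold change 0.62, adjusted p = 0.0546). The part of dissociation in the PancVAX difference was not tested.

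Preparations were compared over the same genes. Of 6911 genes tested between the Percoll and the whole-tumor libraries of the same treatments, 44 were called (0.637% of genes tested), 34 higher (0.492%) and 10 lower (0.145%) in Percoll, and 418 higher (6.05%) and 398 lower genes (5.76%) had an unadjusted p below 0.05. Of the 17 genes called with PancVAX, 6 were among the 34: Nfkbia (log2 fold change between preparations 0.73), Hbegf (1.11), Pim1 (0.83), Atf3 (0.86), Ppp1r15a (0.80), and Ifrd1 (0.65). The Percoll library gave from 26.3% of the endothelial UMIs of the Isotype Control pool to 67.2% of those of the pool with all 3 agents. Within whole-tumor libraries alone, all 17 kept their direction and 1 gene was called, and within Percoll libraries alone all 15 that could be tested kept it and none was called. The genes were chosen on the sums of these same libraries, so the kept direction is partly fixed by that choice. Single libraries were less apart than the pools. In Percoll libraries Cdkn1a was at 536 CPM in Isotype Control and at 349 to 530 CPM with PancVAX. Nfkbia was there at 2108 CPM in Isotype Control and 2014 CPM with PancVAX alone. Zfp36 and Junb overlapped in both preparations, and Pim1 and Sema3f in whole-tumor libraries. Nfkbia did not overlap in whole-tumor libraries, nor Hbegf and Ifrd1 in either preparation. In a fit of the 16 libraries with preparation as a covariate 8 genes were called, 7 of them among the 17, including Nfkbia (log2 fold change 0.67, adjusted p = 0.0414), Tnfaip3 (1.60, 0.0139), Pim1 (0.97, 0.0124), and Hbegf (0.78, 0.0124). Zfp36, Junb, Atf3, Cdkn1a, Ier3, and Cxcl1 were not called there, with adjusted p from 0.0747 to 0.258. That fit has no block for the pool and counts both libraries of a pool as separate units. Whether both hold the same mice is not known, so its p-values measure spread between libraries and not between independent pools.

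**Figure D4:**
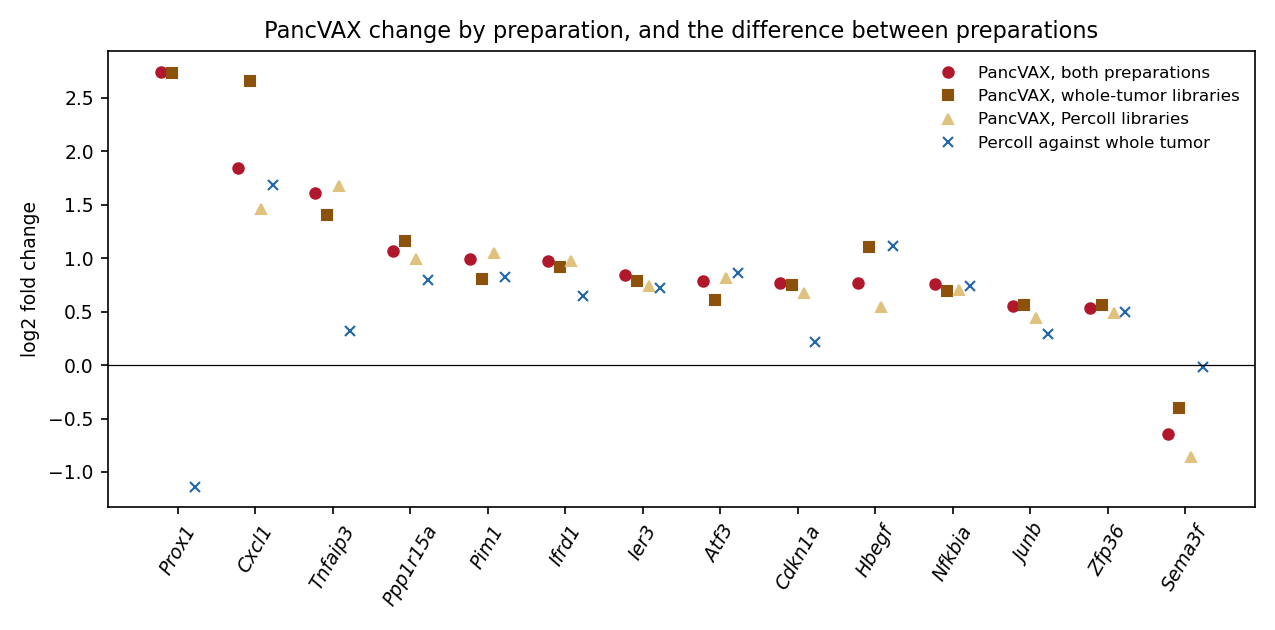
Log2 fold change (y axis) of 14 called genes with PancVAX over both preparations (red), in whole-tumor libraries (brown squares) and in Percoll libraries (tan triangles), and between Percoll and whole-tumor libraries (blue crosses). The PancVAX change has the same direction in each preparation in which the gene could be tested, and most of the same genes are also higher in Percoll, 6 of the 17 called past the threshold. The genes were called on the sums of these same libraries, so the shared direction is partly fixed by that choice.

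Pericyte and smooth muscle (mural) genes were counted as markers of other cells, though Kcnj8, 1 of the 8 listed, was found in every library. It was at 71.5 and 128 CPM in the Isotype Control and Anti-PD-1 Percoll libraries, where Rgs5 and Acta2 were at 0. Of 6 mural genes tested none was called and 3 had an unadjusted p below 0.05, all lower with PancVAX, with a median log2 fold change of -0.98. All 8 listed genes together summed to 200.1 to 487 CPM in the pools with PancVAX and 329 to 1141 CPM in those without. Acta2, smooth muscle actin, was at 53.1, 26.6, 54.9 and 58.3 CPM with PancVAX and 114, 22.6, 500.2 and 252 CPM without it (log2 fold change -1.92, SE 0.36, adjusted p = 0.0537), and the groups overlapped. The 16 cells with at least 4 of the 8 mural genes, 6 with PancVAX and 10 without, held 72.6% of the UMIs of the list. Their median of 20516 UMIs was above the 11665 of the other endothelial cells, and 93.8% held Kdr. Their shares of a pool, 2.20% ± 0.937 with PancVAX and 5.27% ± 4.34 without, were not separated (SD, n = 4 pools each, exact p = 0.171). After thinning to 1000 UMIs, cells with at least 2 mural genes were 0.718% ± 0.850 of a pool with PancVAX and 4.64% ± 3.53 without (SD, n = 4 pools each, exact p = 0.0286, not adjusted). The groups were not separated without thinning (17.3% ± 6.42 and 23.1% ± 7.32, exact p = 0.286) or after thinning to 5000 UMIs (9.71% ± 3.91 and 13.6% ± 3.19, exact p = 0.2). Thinning to 5000 UMIs kept only 397 of the 489 cells, so these shares are not over the same cells. Fibroblast genes, with 2 of 4 tested at an unadjusted p below 0.05, were also lower (median -1.36, summed 52.7 to 310.5 CPM against 8.80 to 1424 CPM). When the 95 cells with at least 2 mural genes, 74 of them with exactly 2, were left out, 2 genes were called, Prox1 and Pim1. Fewer cells were then summed, and the part of that in the lost calls was not tested. All 17 kept their direction, which is partly fixed because they were chosen on largely the same cells. The log2 fold changes were then 1.19 for Pim1, 0.96 for Ifrd1, 1.38 for Tnfaip3, and 0.58 for Nfkbia, against 0.99, 0.97, 1.61, and 0.76 in all cells. Those of Zfp36 (0.27 against 0.54) and Cxcl1 (1.24 against 1.85) were the most reduced. The part of mural or fibroblast RNA in the PancVAX difference was not tested further.

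Adhesion molecules hold leukocytes to the vessel wall. Of 12 adhesion genes none was called with PancVAX, 4 had an unadjusted p below 0.05 in the higher and 1 in the lower direction, and the median log2 fold change was 0.16. Icam1, the ligand of the leukocyte integrin LFA-1, was at 139, 307, 90.1 and 139 CPM with PancVAX and 85.5, 86.7, 68.8 and 109 CPM without it (log2 fold change 0.86, SE 0.20, adjusted p = 0.149). The PancVAX + Anti-PD-1 pool was far above the others, and the PancVAX + Anti-CTLA-4 pool overlapped the pools without vaccine. Vcam1, the ligand of VLA-4, gave 159, 124, 62.2 and 84.4 CPM with PancVAX and 60.4, 77.9, 32.3 and 79.2 CPM without it (0.74, adjusted p = 0.306). Sele (E-selectin) was at 22.6, 36.7, 10.3 and 39.6 CPM with PancVAX and 13.4, 6.28, 15.5 and 10.2 CPM without it (1.22, adjusted p = 0.392), and it was also the adhesion gene called between preparations (log2 fold change 3.56 in Percoll). Glycam1, a ligand of L-selectin on high endothelial venules, was at 0, 9.18, 2.20 and 0 CPM with PancVAX and 41.9, 30.2, 1.41 and 2.56 CPM without it (-2.35, adjusted p = 0.254).

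Of 12 chemokine and scavenger genes, Cxcl1 alone was called and 6 had an unadjusted p below 0.05, all higher, with a median log2 fold change of 0.60. Cxcl10, which draws T cells through CXCR3, was at 647, 465, 327 and 338 CPM with PancVAX and 387, 276, 109.6 and 405 CPM without it (0.58, adjusted p = 0.606). Cxcl9, which acts through the same receptor, was at 1312, 1071, 433 and 602 CPM with PancVAX and 409, 1290.4, 600.0 and 1035 CPM without it (0.01, adjusted p = 0.998), with 4 pools above 1000 CPM, 2 of them with PancVAX and 2 without, and the others at 602 CPM or less. Ccl2, which draws monocytes, was at 27.9, 174, 29.3 and 173 CPM with PancVAX and 31.9, 17.6, 16.9 and 81.8 CPM without it (1.35, adjusted p = 0.253), and the 2 high pools with PancVAX were those with anti–PD-1. Ccl5, which T cells also make, was at 47.8, 51.4, 5.13 and 3.13 CPM with PancVAX and 0, 2.51, 1.41 and 5.11 CPM without it (3.24, adjusted p = 0.0665), and the 5 T and NK cell genes listed summed to 2.08 to 25.7 CPM with and 2.51 to 8.43 CPM without PancVAX.

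No interferon-induced or MHC gene of the lists was called with PancVAX. Of 32 interferon-induced genes none was called with PancVAX and 2 had an unadjusted p below 0.05 (median log2 fold change 0.11), the summed level being 8924 to 10285 CPM with and 8674 to 9695 CPM without. Irf1, the transcription factor of the interferon-γ response, came nearest at 173, 249.6, 131 and 184 CPM with PancVAX and 131, 181, 87.1 and 120.2 CPM without it (0.52, adjusted p = 0.0884). Of 18 MHC class I genes 5 had an unadjusted p below 0.05, all higher, with a median of 0.15 and none called. Of 7 MHC class II genes 1 did, with a median of 0.27 and none called. Cd74, the invariant chain of MHC class II, had a UMI in 77.9% of endothelial cells, a share no higher than the 81.3% of keratin-positive barcodes, and was at 2356, 3007, 2040.1 and 1531 CPM with PancVAX and 2389, 1857, 1139.5 and 1993 CPM without it (0.27, adjusted p = 0.700). Tmem173, which encodes STING, the target of the agonist in the vaccine dose, was at 155, 140.4, 158 and 141 CPM with PancVAX and 117, 137, 133 and 123 CPM without it (0.21, adjusted p = 0.680). Its pools did not overlap, and it did not pass the test.

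Genes of vessel growth and identity showed no call with PancVAX apart from Prox1, 1 of 17 endothelial transcription factors. No gene was called among 8 VEGF ligands and receptors (median log2 fold change -0.06), 5 angiopoietin and Tie genes (-0.03), 10 Notch genes (-0.06), 9 BMP and TGF-β genes (-0.04), and 9 junction genes (-0.01). At an unadjusted p below 0.05 these lists held 1, 0, 1, 1, and 0 genes in all. Kdr averaged 435 ± 30.4 against 469 ± 73.8 CPM (SD, n = 4 pools each) and Flt1 749 ± 125 against 947 ± 277 CPM (SD, n = 4 pools each), the latter with its highest pool, 1353 CPM, in Isotype Control. Of 14 basement membrane genes 13 were below 0 (median -0.17), with 2 at an unadjusted p below 0.05 and none called. Sparc, a matrix protein, gave 7976, 9399.7, 9114 and 9593 CPM with PancVAX and 10803, 9734, 10189.8 and 10268 CPM without it without overlap (log2 fold change -0.19, adjusted p = 0.583). Esm1, a marker of tip cells at the front of a sprout, was at 87.7, 49.6, 69.6 and 121 CPM with PancVAX and 132, 61.6, 291 and 207 CPM without it (-0.99, adjusted p = 0.217), and Fabp4, a lipid-binding protein of capillaries, at 1427, 1161, 1932 and 1549 CPM with PancVAX and 2056, 1827, 2105 and 1866 CPM without it (-0.39, adjusted p = 0.173).

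Under the study's upper limits, with 184 cells left, 1 gene was called. The count differed with single pools left out. Without the PancVAX pool 51 genes were called and without the Anti-PD-1 pool 11, while 1 was called without PancVAX + Anti-PD-1 and none without PancVAX + Anti-CTLA-4, without all 3 agents, or without Anti-CTLA-4.

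Anti–PD-1 and anti–CTLA-4 were tested in the same fit. With anti–PD-1 no gene was called by edgeR (0% of 8178) or DESeq2, and 184 higher (2.25%) and 158 lower genes (1.93%) had an unadjusted p below 0.05. Without the Anti-PD-1 pool 8 genes were called and without Isotype Control 2. With anti–CTLA-4 no gene was called by edgeR (0% of 8178) and 6 by DESeq2, and 387 higher and 345 lower genes had an unadjusted p below 0.05 (4.73% and 4.22% of genes tested). Of 32 interferon-induced genes, 13 had an unadjusted p below 0.05, all lower, with a median log2 fold change of -0.30 against -0.01 over all genes tested. Irgm1, an interferon-induced GTPase, was at 95.6, 104, 59.0 and 74.1 CPM in Isotype Control, Anti-PD-1, Anti-CTLA-4, and both antibodies, and at 117, 106, 51.3 and 84.4 CPM in the pools with PancVAX (log2 fold change with anti–CTLA-4 -0.67, adjusted p = 0.192). Irf1 (log2 fold change -0.49, adjusted p = 0.165) and Gbp2, another such GTPase (-0.67, 0.253), also missed the threshold. Of 7 MHC class II genes 5 had an unadjusted p below 0.05, all lower (median -0.50), among them Cd74 (-0.51, adjusted p = 0.348).

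Markers of other cells and of lymphatic cells were counted beside these values. With anti–PD-1, 4 of 4 fibroblast genes had an unadjusted p below 0.05, all higher (median 1.86), and none was called. With anti–CTLA-4, 3 of 4 fibroblast genes (median 2.36) and 4 of 6 mural genes (median 1.13) had an unadjusted p below 0.05 in the higher direction, and 4 of 6 lymphatic genes in the lower direction (median -1.10). Col1a1 was at 35.9, 47.7, 22.7 and 160.4 CPM with PancVAX and 20.1, 0, 104 and 584 CPM without it, with 584 CPM in the Anti-PD-1 + Anti-CTLA-4 pool alone. The part of these cells in the values of both antibodies was not tested. Without the PancVAX + Anti-CTLA-4 pool 28 genes were called, without the PancVAX pool 16, without Anti-PD-1 3, and without Anti-CTLA-4 1.

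PancVAX alone was compared with Isotype Control in a fit of the 16 libraries with preparation as a covariate. Each arm of this comparison, and of the next, is the whole-tumor and the Percoll library of 1 pool, and the sources used here do not say whether both hold the same mice, so the p-values measure spread between libraries and not between independent pools. No gene was called by edgeR (0% of 6911) and 6 by DESeq2, and 250 higher (3.62%) and 273 lower genes (3.95%) had an unadjusted p below 0.05. In simulated counts this comparison recovered few of the changed genes, so that the absence of calls says little. Of 32 interferon-induced genes 9 were higher and 1 lower at an unadjusted p below 0.05 (median 0.40), and of 7 VEGF ligands and receptors 5 were lower (median -0.56, none above 0), none of them called. Nfkbia had a log2 fold change of 0.14 (SE 0.24) and Tnfaip3 of 0.85 (SE 0.65) here. When both antibodies were added to PancVAX, 1 gene was called, lower (0.0145% of 6911), and 187 higher (2.71%) and 195 lower genes (2.82%) had an unadjusted p below 0.05. Ifit2, an interferon-induced gene that restrains viral translation, was at 197, 44.1, 31.5 and 27.1 CPM with PancVAX and 28.5, 28.9, 46.4 and 134 CPM without it, so that the PancVAX pool was the highest (log2 fold change -2.96, SE 0.43, adjusted p = 0.0156). Of the 32 interferon-induced genes 7, Ifit2 included, were lower at an unadjusted p below 0.05 (median -0.51). Markers of other cells also moved, with none called. Both macrophage genes tested were lower (median -2.13). All 3 fibroblast genes (median 2.75) and all 5 mural genes (median 0.84) were higher. In each of these 3 lists 1 gene had an unadjusted p below 0.05. The part of such cells in this comparison was not tested. Both comparisons share the PancVAX libraries. No gene was called without the whole-tumor PancVAX library, without the Percoll PancVAX library, or without the Percoll library of all 3 agents, and 6 were called without the whole-tumor library of all 3 agents.

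Among the genes called between preparations, Snai1, a transcription factor of epithelial–mesenchymal transition, rose by a log2 fold change of 1.37 (adjusted p = 5.16e-04), the orphan receptor gene Nr4a1 by 1.10 (7.10e-04), and Id1, a target of BMP signaling, by 1.02 (0.00423). Of 9 BMP and TGF-β genes 3 were called higher, and of 12 dissociation genes 1 was called and 7 had an unadjusted p below 0.05, all higher (median 0.31). Cxcl12, a chemokine of arterial and stromal cells, fell by 1.98 on the log2 scale in Percoll (adjusted p = 0.0100), and the replication genes Mcm4 and Hells fell by 0.82 and 1.13. Under the study's upper limits the sign of Cxcl12 turned (0.16). All 3 fibroblast genes tested were also lower in Percoll (median -1.49), 1 of them at an unadjusted p below 0.05 and none called. The part of fibroblast RNA in these values was not tested.

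Whether the PancVAX values were particular to endothelial cells was tested against 2 other groups of barcodes of the same pools. Fibroblast-like barcodes (502, Col1a1 and Col1a2 together at least 2 UMIs and Dcn at least 1) and keratin-positive barcodes (58629, Krt8 and Krt18 together at least 2 UMIs, the class of the Panc02 cells) were summed by pool, and the interaction of class and PancVAX was tested with the pool as a block. Both classes also had to hold no UMI of Pecam1, Cdh5, or Ptprc and at most 1 of C1qb. Fibroblast-like barcodes held at most 1 UMI of Krt8 and Krt18 together. Alone, neither class had a called gene: 0% of 9205 genes in fibroblast-like barcodes, with 322 higher (3.5%) and 233 lower (2.53%) at an unadjusted p below 0.05, and 0% of 16375 in keratin-positive barcodes, with 1478 higher (9.03%) and 1582 lower (9.66%).

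From fibroblast-like barcodes the PancVAX change differed in 1 of 9815 genes (0.0102%), the chemokine Cxcl10 (difference of log2 fold changes 1.66, SE 0.21, adjusted p = 0.0279). In endothelial cells themselves Cxcl10 was not called with PancVAX, and its change there, given above, was smaller than this difference. The difference is therefore not a rise in endothelial cells alone. Of 14 alternatives of this comparison, 8 kept the call, 5 lost it, and 1 turned its sign. At an unadjusted p below 0.05 there were 262 more positive (2.67%) and 259 more negative genes (2.64%). None of the 17 genes differed there. In fibroblast-like barcodes alone, Ppp1r15a had a value of 0.74 ± 0.14 (log2 fold change ± SE), Ifrd1 of 0.62 ± 0.12, Atf3 of 1.23 ± 0.27, and Nfkbia of 0.33 ± 0.13. All 12 dissociation genes were above 0 in them (median 0.45, 8 at an unadjusted p below 0.05), as were 11 of 12 in endothelial cells. A missed difference does not show that the classes changed alike.

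From keratin-positive barcodes the change differed in 82 of 15925 genes (0.515%), 42 more positive (0.264%) and 40 more negative (0.251%) in endothelial cells. At an unadjusted p below 0.05 there were 454 (2.85%) and 408 (2.56%). In simulated counts, false calls took more than their nominal share of the calls in the tests against both other classes, so single genes among these calls are uncertain. Of the 17 genes, which were chosen by their change in endothelial cells and so lean toward a positive difference, 8 were among the 42: Tnfaip3 (difference 1.51, SE 0.24), Cxcl1 (1.39), Cdkn1a (0.89), Ier3 (0.88), Ifrd1 (0.81), Zfp36 (0.77), Ppp1r15a (0.75), and Nfkbia (0.65, SE 0.14). In keratin-positive barcodes alone, Nfkbia had a log2 fold change (± SE) of 0.11 ± 0.10 and Tnfaip3 of 0.03 ± 0.14. Of the 40 more negative, Rgs5 (-2.28) and Acta2 (-1.99) are mural genes, and Col6a2 (-2.25) and Mgp (-1.96) are matrix genes of stromal cells. The classes differed in depth (median 18862 UMIs in keratin-positive barcodes and 15122.5 in fibroblast-like ones) and in number, and the part of this in the differences was not tested.

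**Figure D5:**
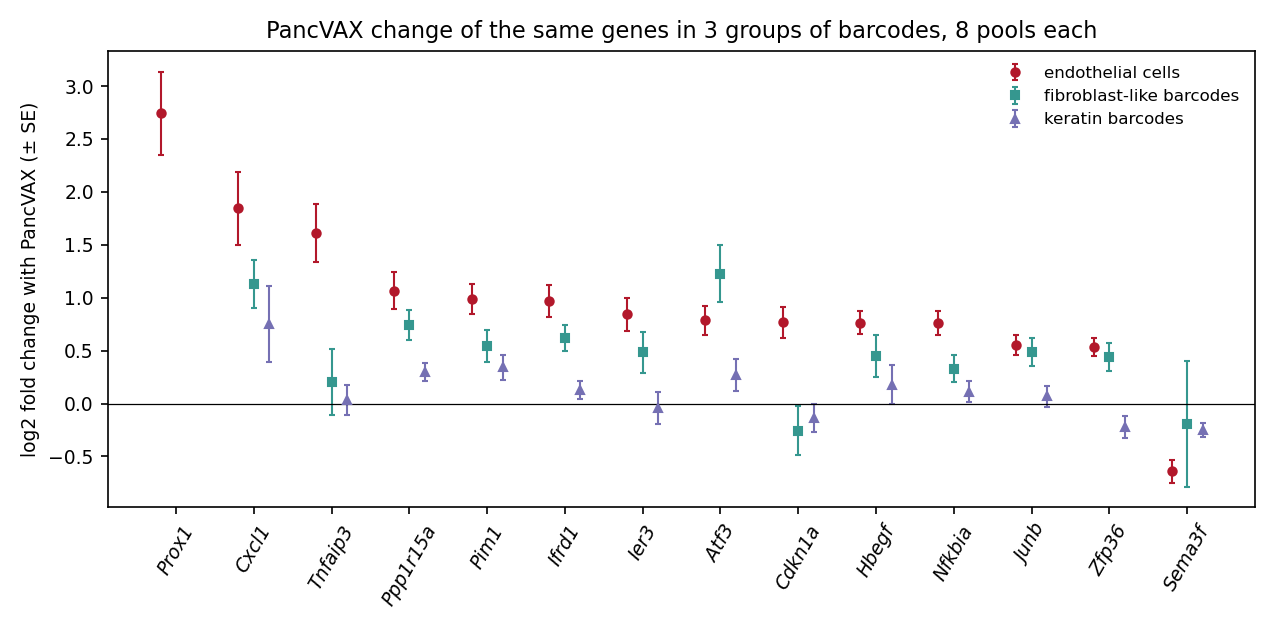
Log2 fold change with PancVAX (y axis, bars ± SE) of 14 genes called in endothelial cells (red), beside the same genes in fibroblast-like (green squares) and keratin-positive barcodes (violet triangles), 8 pools each. Prox1 was not testable in the other classes; the genes were chosen by their call in endothelial cells, so their height there is partly fixed by that choice, and Atf3 sits highest in fibroblast-like barcodes.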

How the data were processed

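Dissociated Panc02 tumors were measured by 10x 5′ single-cell RNA-Seq in 16 libraries, and all were used. The authors aligned and counted reads with Cell Ranger 4.0.0 (build mm10 per the processing notes), and the deposited values are raw UMI counts per gene and barcode, from 77132398 to 176233225 per library. Deposited T cell receptor contigs (Percoll libraries) were used only to mark barcodes. Groups came from the sample labels. No column of per-sample values was left unmapped.

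UMI counts were summed over endothelial cells by pool, or by library for the pairs of treatments and for the preparations, and tested with edgeR 4.0.16 (quasi-likelihood F test, TMM factors, filterByExpr, Benjamini-Hochberg adjustment over all genes tested). Genes of the rule and mt- genes were not called. Shares were compared by exact permutation over 70 splits (scipy 1.17.1). Each pool or library entered with at least 10 cells. The models were tested on simulated counts. Preparation and sequencing batch are the same split, and the fit of 16 libraries carries it as a term. Labels carry no mouse, so p-values measure spread between pooled libraries only. A UMI is counted once however often its molecule is amplified, but 5′ counts do not allow levels to be compared between genes.

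Members and gene lists were chosen with earlier results of these data known. Named genes were the marker genes, up to 6 called and the 3 highest genes of each list, and up to 10 called genes in each direction per comparison. Other named genes were chosen after their values were seen: Pdpn, Reln, Icam1, Glycam1, Ccl2, Ccl5, Egr1, Irf1, Gbp2, Irgm1, Cd36, Fxyd6, Noct, and Rnf125. Of 336 listed symbols, 6 entries had no single matching identifier. Alternatives were DESeq2 1.42.0, RLE factors, no filter, single preparations, all libraries, other covariates, other limits, and each pool left out, and chosen after seeing the data were the sets without lymphatic, mural, or hemoglobin-positive cells, thinning to 5000 UMIs, the Percoll shares over barcodes without Ptprc, and a limma 3.58.1 voom fit. The cutoff of at least 4 lymphatic or mural genes was also not among the planned tests.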

Additional observations from a re-analysis of the deposited data

Results flagged for a closer look

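Among 50 groups of 4 libraries or pools examined, many of them genes of the same pools, a sample stood far from the others of its group by Dixon's test at 95% in 4, and chance gives about 1 in 20. The PancVAX pool had at least 2 venous genes in 78.0% of its endothelial cells, below the other pools with PancVAX and only just past the critical value. The Isotype Control pool stood apart from the other pools without PancVAX in Prox1 (11.7 CPM, above them), Cdkn1a (315 CPM, above them), and Zfp36 (709 CPM, below them).

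The change with PancVAX differed by test between endothelial cells and fibroblast-like barcodes for Cxcl10, with a difference of log2 fold changes of 1.66 (edgeR interaction, Benjamini-Hochberg adjusted p = 0.0279). It differed from keratin-positive barcodes, with a more positive change in endothelial cells, for Cd34 (1.76), Tnfaip3 (1.51), Cxcl1 (1.39), Hmga1 (1.29), Cenpf (1.02), Cdkn1a (0.89), Ier3 (0.88), Ccn1 (0.82), Ifrd1 (0.81), Ube2c (0.78), Zfp36 (0.77), Ppp1r15a (0.75), Trp53i11 (0.75), and Nfkbia (0.65). It was more negative for Rgs5 (-2.28), Col6a2 (-2.25), Acta2 (-1.99), Mgp (-1.96), Tpm2 (-1.93), Clu (-1.50), Dusp2 (-0.99), Bgn (-0.93), Srgn (-0.87), and Adgrf5 (-0.78). In endothelial cells themselves, Cd34, a sialomucin of vessels, had a log2 fold change with PancVAX of 0.05, Trp53i11 of 0.09, and Dusp2 of 0.32, none past the threshold. Cxcl10 was not called there either, and its change was smaller than the difference of 1.66.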

How the results depend on the processing

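The count of 17 genes changed with PancVAX became 180 with no filter on low counts, 1 in whole-tumor libraries only, 0 in Percoll libraries only, 8 in 16 libraries with preparation as covariate, 5 with no covariates for the other agents, 5 at a mitochondrial limit of 5%, 1 under the study's upper limits, 11 without cells with 2 lymphatic genes, 2 without cells with 2 mural genes, and 11 in a voom fit with the pool as a block. Leaving out a pool gave 0 to 51. For anti–PD-1 no filter gave 58 and leaving out a pool 0 to 8. For anti–CTLA-4 DESeq2 gave 6, no filter 126, Percoll libraries only 7, removal of cells with UMIs of other cells 2, and leaving out a pool 0 to 28. For PancVAX against isotype control DESeq2 gave 6, no filter 66, only the 4 libraries compared 29, and leaving out a library 0 to 3. For both antibodies added, no filter gave 52, no preparation covariate 0, and leaving out a library 0 to 6. Between preparations no filter gave 185 and the study's upper limits 0. The 1 gene that differed from fibroblast-like barcodes became 11 with no filter, 0 in whole-tumor libraries only, 0 under the study's upper limits, 0 without lymphatic cells, and 0 to 18 with a pool left out. The 82 that differed from keratin-positive barcodes became 19 with DESeq2, 12 under the study's upper limits, and 34 to 88 with a pool left out. The share difference with PancVAX was 0.140 percentage points in Percoll libraries (exact p = 0.0286, adjusted p = 0.0857) and 0.2396 over their barcodes without Ptprc, an alternative chosen after seeing the data (exact p = 0.0571). With a whole-tumor library left out the difference ranged from 0.0290 to 0.157 for PancVAX, -0.00790 to 0.1196 for anti–PD-1, and -0.219 to -0.110 for anti–CTLA-4. No subtype share passed the threshold under any alternative run. Among the genes named as called, signs turned only under the study's upper limits, for Fxyd6 with PancVAX (-0.036), Id1 (-0.10) and Cxcl12 (0.16) between preparations, Cxcl10 against fibroblast-like barcodes (-0.11), and Hmga1 (-0.17), Acta2 (0.24), Adgrf5 (0.11), and Tpm2 (0.057) against keratin-positive barcodes. The cause was not tested, except that the upper limits and single preparations leave fewer cells. The labels give no replicate numbers by which treatments could be paired, and the pool was the block in the voom fit and in the comparisons between classes of barcodes.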
